A study of Mus musculus with 13 samples.

Results

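The miR-23, miR-27 and miR-24 microRNAs (miRNAs) of the mouse come from a pair of gene clusters, an a-cluster and a b-cluster. Their 5 main mature arms on the array, miR-23a-3p, miR-27a-3p, miR-23b-3p, miR-27b-3p and miR-24-3p, were chosen by name among the 1122 mouse miRNAs measured. All 5 were well above background on all 13 arrays, and all 5 are among the 229 mouse miRNAs that were tested. Levels were measured on 1-colour Agilent arrays in sorted cells of C57BL/6 background, with 3 biological replicates in each of 4 groups. DN are CD4- CD8- thymocytes and DP are CD4+ CD8+ thymocytes, both sorted from thymus. ES (early stage) and LS (late stage) are both T-ALL, an acute lymphoblastic leukaemia of T cells. These CD4+ CD8+ cells were sorted from spleens of chimeric mice with bone marrow transformed by N1ICD, the intracellular domain that makes Notch1 signalling active. The 13th array holds M295, a cultured mouse T-ALL line, as 1 sample. Since primary T-ALL was taken from spleen and normal cells from thymus, the organ and the disease cannot be told apart here. The promoter that drives N1ICD, the cells of the host that remained in the chimeras and the age of the mice are not given in the sources used here. CD4 and CD8 are proteins, so the sort itself cannot be checked on a miRNA array.

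A mature miRNA guides a silencing complex to messenger RNAs that pair with its seed, the bases 2 to 8 from its 5′ end. The a-cluster and the b-cluster arose by duplication, each encoding 1 hairpin of the miR-23, the miR-27 and the miR-24 family, and the hairpins of a cluster are made from a shared primary transcript. In blood cells the a-cluster is known for favouring myeloid over B-lymphoid development, and in mouse T cells the clusters are known to restrain effector and helper programmes. miR-23a and miR-23b are known from human tumour cells to act on the transcript of glutaminase, the enzyme that opens glutamine use. miR-27a is known from human cells to act on the transcript of FBXW7, the ubiquitin ligase component that marks active Notch1 and MYC for breakdown, and miR-24 is known from human blood cells to act on transcripts of cell-cycle genes.

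The mature sequences are shown because they set which members can be told apart. The Mir23b hairpin holds the seed of miR-23a-3p, UCACAUU, but miR-23b-3p had no mature entry in the reference. Its sequence is thus not shown, and its differences from miR-23a-3p were not listed. The other sequences are given 5′ to 3′, with the seed in capitals. They come from RefSeq annotation of mouse build GRCm38.p6, in which 4 of the 5 members were matched.
mmu-miR-23a-3p: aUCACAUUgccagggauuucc
mmu-miR-27a-3p: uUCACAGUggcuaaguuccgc
mmu-miR-27b-3p: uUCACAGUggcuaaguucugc
mmu-miR-24-3p: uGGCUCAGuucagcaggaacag
miR-27a-3p and miR-27b-3p share the seed UCACAGU and differ by 1 substitution over 21 bases, C19U, with positions counted from the 5′ end of miR-27a-3p and the base of miR-27a-3p given first. The seed of miR-23a-3p, UCACAUU, and that of miR-24-3p, GGCUCAG, were not found in a mature sequence of the reference for any other mouse miRNA of the array outside the members. The array has 2 probes for each member, and no probe sequence was used here. How much a probe for one member of a pair reads of the other was not tested.

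The a-cluster lies on the + strand at chr8:84208518-84208921, a span of 404 bases that overlaps Mir23a, Mir27a, Mir24-2 and, on the - strand, Mir3074-2. The b-cluster lies on the + strand at chr13:63300484-63301275, a span of 792 bases with Mir23b, Mir27b, Mir24-1 and, on the - strand, Mir3074-1, all within the protein-coding gene Aopep. The hairpins of miR-24 are shown because both give the same mature 3p arm, here in capitals, so a signal of miR-24-3p cannot be split between the clusters.
Mir24-2, a-cluster, chr8:84208815-84208921: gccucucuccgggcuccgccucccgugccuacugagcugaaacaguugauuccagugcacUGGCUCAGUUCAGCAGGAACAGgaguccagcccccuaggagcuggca
Mir24-1, b-cluster, chr13:63301208-63301275: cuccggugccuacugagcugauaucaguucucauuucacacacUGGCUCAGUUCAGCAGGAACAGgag
The 5p arms of these hairpins differ in sequence, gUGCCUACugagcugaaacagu for miR-24-2-5p and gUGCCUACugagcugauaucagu for miR-24-1-5p, and would tell the clusters apart. Both were above background on 0 of the 13 arrays. The same held for the other cluster partners, the 5p arms of miR-23a, miR-23b, miR-27a and miR-27b and the 3 miR-3074 arms, so that 9 of 9 were not well above background and 0 were tested.

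Levels are given as log2 scaled signal, in which 0 is the 75th percentile of a reference set (108 mouse miRNAs detected on every primary array), and 1 unit is a doubling. Each probe has its own brightness, so levels are compared between groups and not between miRNAs. Some arrays stood apart before any comparison was made. On ES 3, miR-223-3p, the defining miRNA of myeloid cells, had a log2 scaled signal of 2.85, against -7.31 to -4.89 on the other 11 primary arrays. The negative controls of ES 1 had an SD of 19.0, while on the other arrays it was 7.11 or less, and ES 1 had 115 mouse miRNAs above background against 157 to 257. The arrays were run on 2 slides, and each slide held arrays of every primary group. Slide 1 held 1 array each of DN and DP (DN 1 and DP 1), and slide 2 held 1 each of ES and LS (ES 3 and LS 3), so a value within a slide can rest on a single array of a group and is given without a test. The number of arrays, 3 per group, limits the precision of every value.

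The a-cluster miRNAs had their lowest mean levels in late-stage T-ALL. miR-23a-3p, a miRNA of the miR-23 family, had log2 scaled signals of -1.63, -1.43 and -1.61 in DN, -1.66, -1.59 and -1.72 in DP, -2.66, -2.47 and -0.94 in ES, and -4.63, -2.64 and -2.42 in LS, in the order of the replicate numbers. All 3 LS arrays lay below all 6 thymocyte arrays, while the ES arrays lay on both sides of them, with ES 3 the highest array of all. The group means of miR-23a-3p were -1.56 ± 0.11 for DN, -1.66 ± 0.06 for DP, -2.02 ± 0.95 for ES and -3.23 ± 1.22 for LS (SD, n = 3 arrays each). The order was thus DN, DP, ES and LS from high to low, and the ranges of neighbouring groups overlapped at every step.

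miR-27a-3p, encoded next to miR-23a on the same transcript, had log2 scaled signals of -1.74, -1.71 and -1.82 in DN, -2.01, -1.98 and -2.49 in DP, -2.82, -2.38 and -1.31 in ES, and -5.13, -3.20 and -2.76 in LS. The order of the groups was the same as for miR-23a-3p, LS 1 was again the lowest array and ES 3 the highest, and all LS arrays lay below all thymocyte arrays. Its group means were -1.76 ± 0.06 for DN, -2.16 ± 0.29 for DP, -2.17 ± 0.78 for ES and -3.70 ± 1.26 for LS (SD, n = 3 arrays each). The DN arrays lay above the DP arrays without overlap, and the ranges of DP and ES and of ES and LS overlapped.

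**Figure D1:**
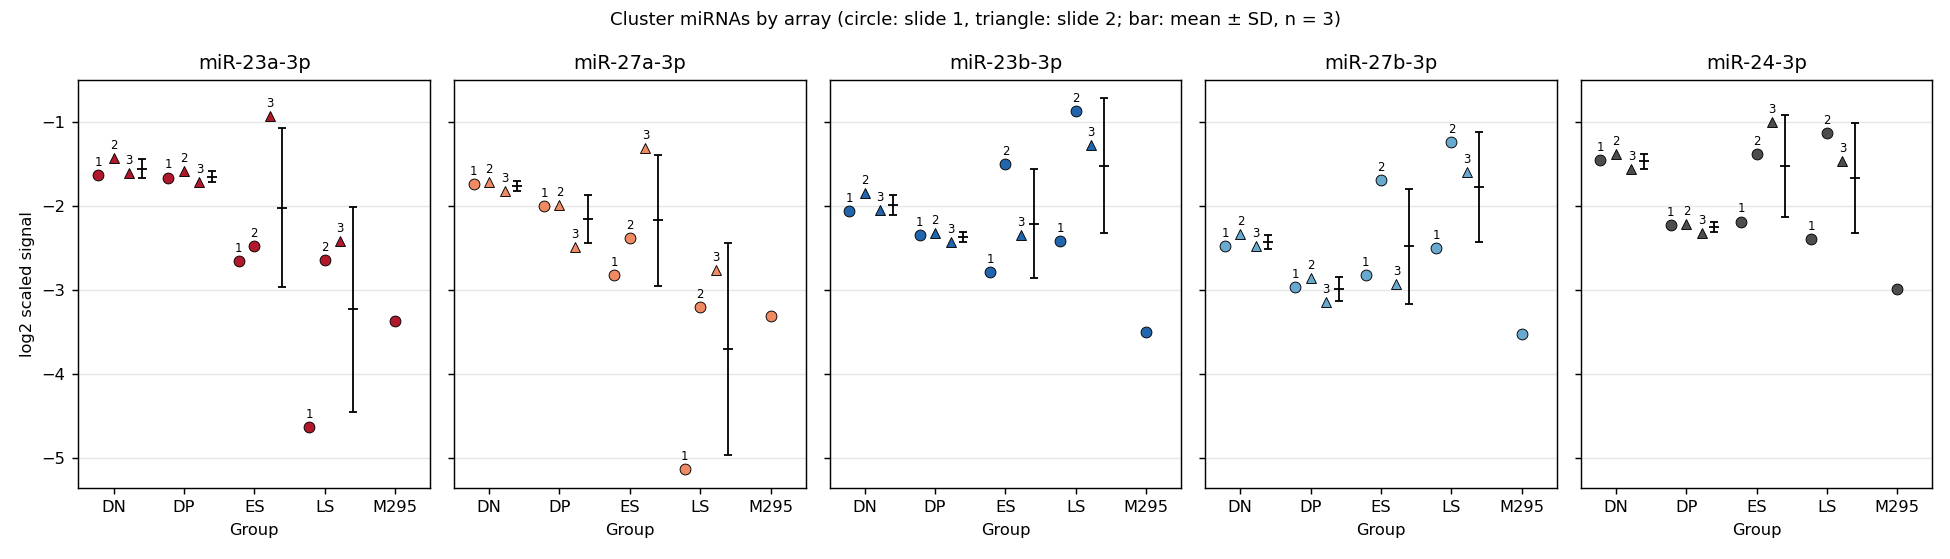
Log2 scaled signal of the 5 cluster miRNAs on every array, by group, with the replicate number above each point, circles for slide 1, triangles for slide 2 and bars for the mean ± SD of 3 arrays. miR-23a-3p and miR-27a-3p are at -4.63 and -5.13 on LS 1 and lie below all thymocyte arrays on the other LS arrays, while miR-23b-3p and miR-27b-3p reach -0.87 and -1.24 on LS 2.

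Both a-cluster miRNAs fell in LS against DP, the comparison of late-stage leukaemia with the thymocytes that share its CD4 and CD8 markers. miR-23a-3p was lower by 2.98-fold (log2 fold change -1.57 with SE 0.57, limma adjusted p = 0.0358) and miR-27a-3p by 2.90-fold (-1.54 with SE 0.56, adjusted p = 0.0358). In bulk samples fewer cells of a type and less RNA per cell cannot be told apart. Over all tested miRNAs 58.5% were called in this comparison, 26.2% lower and 32.3% higher, and the groups did not overlap for 36.7% with LS lower and 41.5% with LS higher, so a call of a single miRNA here is common. LS 1 decided the size of both changes, since without it the log2 fold changes were -0.87 for miR-23a-3p (adjusted p = 0.121) and -0.82 for miR-27a-3p (adjusted p = 0.111). The calls also ended without DN 1 (adjusted p = 0.0504 for both), without DP 1 (0.0848 and 0.0973), without DP 2 (0.0840 and 0.0923) and without DP 3 (0.0767 and 0.0580). Within slide 1 the log2 fold changes were -1.97 for miR-23a-3p and -2.16 for miR-27a-3p, and within slide 2 they were -0.77 and -0.53. With only LS and DP in the fit, miR-27a-3p was not called (adjusted p = 0.0630). With slide as a block neither was called (log2 fold change -1.33 for both, adjusted p = 0.0553 and 0.0602).

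The a-cluster miRNAs also fell in LS against DN. miR-27a-3p was lower by 3.83-fold (log2 fold change -1.94 with SE 0.56, limma adjusted p = 0.0221) and miR-23a-3p by 3.19-fold (-1.67 with SE 0.57, adjusted p = 0.0463), again with groups that did not overlap. In this comparison 33.2% of the tested miRNAs were called, 7.42% of all with LS lower, and 23.6% of all had LS arrays below all DN arrays. The comparison uses the same LS arrays as that with DP, so the values stand side by side and are not separate evidence. Without LS 1 the log2 fold changes were -1.22 for miR-27a-3p (adjusted p = 0.0640) and -0.97 for miR-23a-3p (adjusted p = 0.147). The call of miR-27a-3p also ended without any 1 of the DN arrays (adjusted p 0.0615 to 0.0661), and that of miR-23a-3p without any 1 of the DN arrays (0.0974 to 0.117) or of the DP arrays (0.0663 to 0.0698). Within slide 1 and slide 2 the log2 fold changes were -2.42 and -0.99 for miR-27a-3p and -2.001 and -0.90 for miR-23a-3p. With slide as a block the call of miR-23a-3p ended (log2 fold change -1.42, adjusted p = 0.0676), and with only LS and DN in the fit both calls ended (adjusted p = 0.0828 for miR-23a-3p and 0.0614 for miR-27a-3p).

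The b-cluster miRNAs, in contrast, had their highest mean levels in late-stage T-ALL. miR-27b-3p, which shares its seed with miR-27a-3p, had log2 scaled signals of -2.47, -2.34 and -2.48 in DN, -2.96, -2.86 and -3.14 in DP, -2.82, -1.69 and -2.93 in ES, and -2.51, -1.24 and -1.60 in LS. All 3 LS arrays lay above all DP arrays, LS 1 lay just below the DN arrays, and the DN arrays lay above the DP arrays. Group means of miR-27b-3p were -2.43 ± 0.08 for DN, -2.99 ± 0.14 for DP, -2.48 ± 0.69 for ES and -1.78 ± 0.65 for LS (SD, n = 3 arrays each), an order of LS, DN, ES and DP in which the ranges of neighbours overlapped.

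miR-27b-3p rose 2.31-fold in LS against DP (log2 fold change 1.21, SE 0.37, limma adjusted p = 0.0190), the third of the 5 members to be called there. The call depended on the scaling, since the log2 fold change was 1.00 (adjusted p = 0.117) with arrays scaled over all mouse miRNAs, 0.78 (0.219) after quantile normalization and 0.74 (0.201) in the authors' value table. Those scalings moved the median of all tested miRNAs in this comparison by -0.16 and -0.29 for the first and the second. The first divides by the 75th percentile of all 1122 mouse miRNAs, of which 115 to 244 were above background on a primary array. That percentile thus lies among miRNAs not above background, so this scaling follows dim signals. The call also ended without DP 3 (log2 fold change 1.13, adjusted p = 0.0584) and without LS 2 (0.94, adjusted p = 0.0694). Within slide 1 the log2 fold change was 1.09 and within slide 2 it was 1.40.

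miR-23b-3p, the other b-cluster member, had log2 scaled signals of -2.07, -1.85 and -2.05 in DN, -2.34, -2.32 and -2.43 in DP, -2.78, -1.50 and -2.34 in ES, and -2.41, -0.87 and -1.28 in LS. LS 2 and LS 3 were the highest arrays of all and LS 1 lay among the DP arrays, so LS and DP overlapped. The group means of miR-23b-3p were -1.99 ± 0.12 for DN, -2.37 ± 0.06 for DP, -2.21 ± 0.65 for ES and -1.52 ± 0.80 for LS (SD, n = 3 arrays each), with the same order of groups as miR-27b-3p and overlap between neighbours. Its log2 fold change in LS against DP was 0.85 (SE 0.40, 95% interval -0.04 to 1.73, limma adjusted p = 0.0857), which did not pass the threshold of 0.05. Without LS 1 it was 1.29 (adjusted p = 0.0124) and without LS 2 it was 0.52 (adjusted p = 0.296).

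miR-24-3p, which both clusters encode, had its lowest mean level in DP thymocytes. Its log2 scaled signals were -1.46, -1.38 and -1.56 in DN, -2.23, -2.21 and -2.32 in DP, -2.19, -1.38 and -0.999 in ES, and -2.39, -1.14 and -1.47 in LS. The DP arrays lay below all DN and all ES arrays, and LS 1 alone among the LS arrays lay below the DP arrays. Group means of miR-24-3p were -1.47 ± 0.09 for DN, -2.25 ± 0.06 for DP, -1.52 ± 0.61 for ES and -1.67 ± 0.65 for LS (SD, n = 3 arrays each), an order of DN, ES, LS and DP with overlap between neighbours. The log2 fold change in LS against DP was 0.59 (SE 0.35, 95% interval -0.19 to 1.36, limma adjusted p = 0.166), without LS 1 it was 0.95 (adjusted p = 0.0338), and without LS 2 it was 0.32 (adjusted p = 0.472).

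In LS against DP, then, 2 members fell, 1 rose and 2 did not pass the test, where 58.5% of all tested miRNAs were called. The count of members called is thus near that share. The median log2 fold change of the 5 members was 0.59, against 0.19 over all tested miRNAs, a median that hides the opposite signs of the clusters. In LS against DN 2 members fell and 3 did not pass, where 33.2% of all tested miRNAs were called. The medians there were -0.20 for the members and 0.16 for all tested miRNAs.

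No member was called by limma in T-ALL, taken as ES and LS with equal weight, against thymocytes, taken as DN and DP with equal weight, where 57.2% of all tested miRNAs were called. At an unadjusted p below 0.05 there were 2 members. miR-23a-3p had a mean of -2.63 ± 1.18 in T-ALL and -1.61 ± 0.10 in thymocytes (SD, n = 6 arrays each), a log2 fold change of -1.02 (SE 0.41, limma adjusted p = 0.0510). miR-27a-3p had means of -2.93 ± 1.25 and -1.96 ± 0.29, a log2 fold change of -0.97 (SE 0.40, adjusted p = 0.0544). ES 3, the array with the high myeloid miR-223-3p, was the only T-ALL array above the thymocytes for either of them.

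Without ES 3, 3 members were called in that comparison, and so were 154 of all 229 tested miRNAs, against 131 with all arrays. The members called were miR-23a-3p (log2 fold change -1.29, limma adjusted p = 0.0104), miR-27a-3p (-1.19, 0.0201) and miR-27b-3p (0.69, 0.0402). miR-27b-3p was at 0.58 with all arrays (SE 0.26, adjusted p = 0.0796), and it was called without LS 1 as well (0.76, 0.0216). miR-23a-3p was also called without LS 2 (-1.17, 0.0456) or LS 3 (-1.22, 0.0275), and miR-27a-3p without LS 3 (-1.21, 0.0210). Without LS 1 the values of miR-23a-3p and miR-27a-3p were -0.67 and -0.62, and neither was called. Within slide 1 the log2 fold changes of miR-23a-3p and miR-27a-3p were -1.45 and -1.51, and within slide 2, which holds ES 3, they were -0.09 and -0.03. The part of myeloid cells in these values was not tested.

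**Figure D2:**
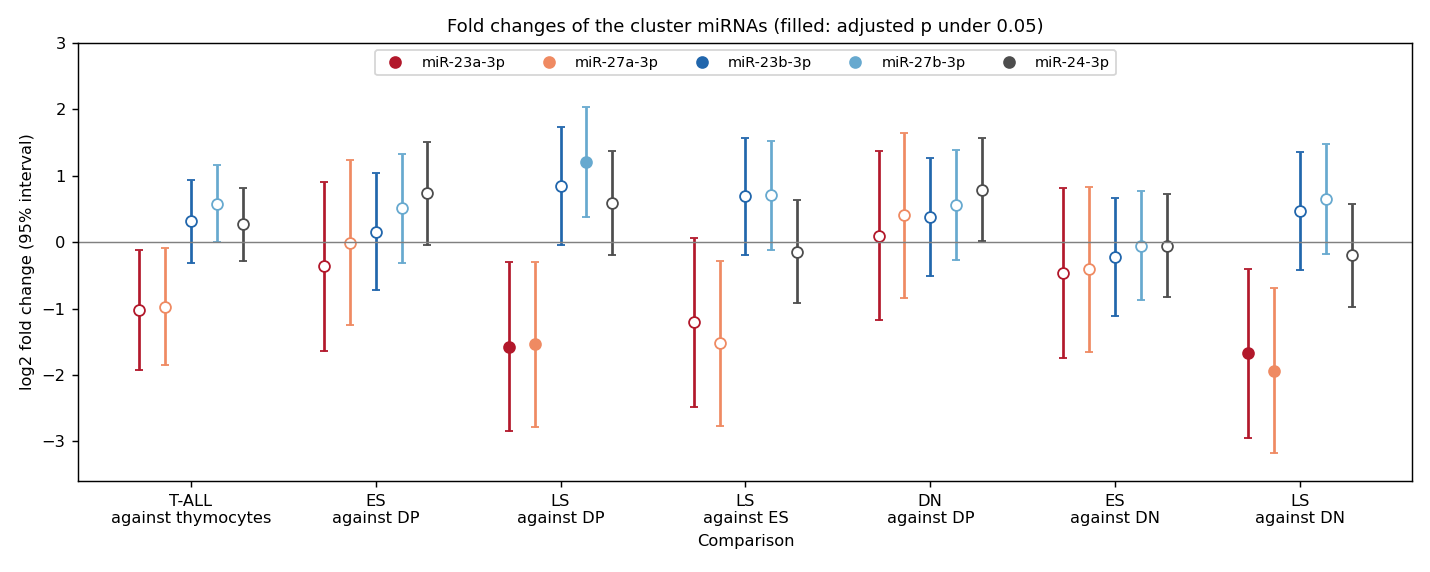
Log2 fold change of the 5 cluster miRNAs in the 7 comparisons, with 95% intervals of the fit, filled where the adjusted p is under 0.05. miR-23a-3p and miR-27a-3p lie at -1.57 and -1.54 in LS against DP, where miR-27b-3p lies at 1.21, and no member is filled in the comparisons of T-ALL with thymocytes, ES with DP, LS with ES, DN with DP or ES with DN.

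With all arrays in the fit, no member was called in early-stage T-ALL against either kind of thymocyte. In ES against DP, where 46.3% of the tested miRNAs were called, limma called 0 of 5 members and 0 had an unadjusted p below 0.05. The largest change was that of miR-24-3p, with a log2 fold change of 0.73 (SE 0.35, adjusted p = 0.107), whose ES arrays all lay above the DP arrays, as did those of 28.8% of the tested miRNAs. Without ES 1, the array with the noisy negative controls, it was 1.06 and called (adjusted p = 0.0271), and without ES 3 it was 0.47 (adjusted p = 0.271). In ES against DN, where 6.55% were called, 0 of 5 members were called and 0 had an unadjusted p below 0.05, with log2 fold changes from -0.46 for miR-23a-3p to -0.05 for miR-27b-3p. The SD of the members among the ES arrays was 0.61 to 0.95. Between stages, LS against ES, where 2.62% of all were called, limma called 0 of 5 members and 1 had an unadjusted p below 0.05. That was miR-27a-3p, with a log2 fold change of -1.53 (SE 0.56, adjusted p = 0.228), and without LS 1 it was -0.81.

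Among normal thymocytes, all members except miR-23a-3p had DN arrays that lay above the DP arrays without overlap, 4 of 5, as did those of 40.6% of all tested miRNAs. limma called 0 of 5 in DN against DP, where 29.3% were called, and 1 had an unadjusted p below 0.05. That was miR-24-3p, 1.73-fold higher in DN (log2 fold change 0.79, SE 0.35, adjusted p = 0.120). The fit shares 1 spread over all 4 groups, and the spread of every member was larger among T-ALL arrays than among thymocytes. With only DN and DP in the fit, 4 of 5 members were called, and so were 164 of all 229 tested miRNAs.

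The a-cluster and the b-cluster were then set against each other within each array, by subtracting the log2 signal of the b member from that of the a member. The scale of an array cancels in this difference. Its zero depends on the brightness of both probes, so only its change between groups is read. For miR-23a-3p minus miR-23b-3p the difference was 0.43, 0.42 and 0.44 in DN, 0.68, 0.74 and 0.72 in DP, 0.13, -0.97 and 1.41 in ES, and -2.22, -1.77 and -1.15 in LS. The thymocyte arrays lay within a narrow band, the LS arrays lay below every other array, and the ES arrays spread on both sides of the band. For miR-27a-3p minus miR-27b-3p it was 0.73, 0.62 and 0.66 in DN, 0.95, 0.88 and 0.65 in DP, 0.00, -0.69 and 1.62 in ES, and -2.62, -1.96 and -1.16 in LS. The same arrays were high and low in both pairs.

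Between DP and LS the balance of a over b was lower in LS by 5.35-fold for miR-23 (change of the log2 difference -2.42) and by 6.70-fold for miR-27 (-2.74). Against DN the changes were -2.14 and -2.59, and against ES they were -1.90 and -2.23. In these comparisons the groups did not overlap, and an exact two-sided permutation test over arrays gave p = 0.10 for each, the smallest that 3 arrays against 3 allow, and an adjusted p of 0.156 over the 14 tests of this kind, so this test could not pass the threshold of 0.05 there. A limma fit of the differences, added after the data were seen, gave adjusted p = 0.00252 for both pairs in LS against DP (SE 0.49 and 0.52), 0.00408 and 0.00252 against DN, and 0.00541 and 0.00408 against ES. That fit assumes a like spread in each group, whereas the SD of the difference was 0.01 to 0.16 in the thymocyte groups, 1.19 in ES and 0.54 and 0.73 in LS. The change from DP to LS was -2.67 and -3.24 within slide 1, -1.87 and -1.93 within slide 2, and -2.24 and -2.33 in the authors' value table, and without any 1 of the 12 arrays it stayed between -2.70 and -2.17 for miR-23 and between -3.12 and -2.39 for miR-27. Without LS 1 in particular it was -2.17 and -2.39.

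**Figure D3:**
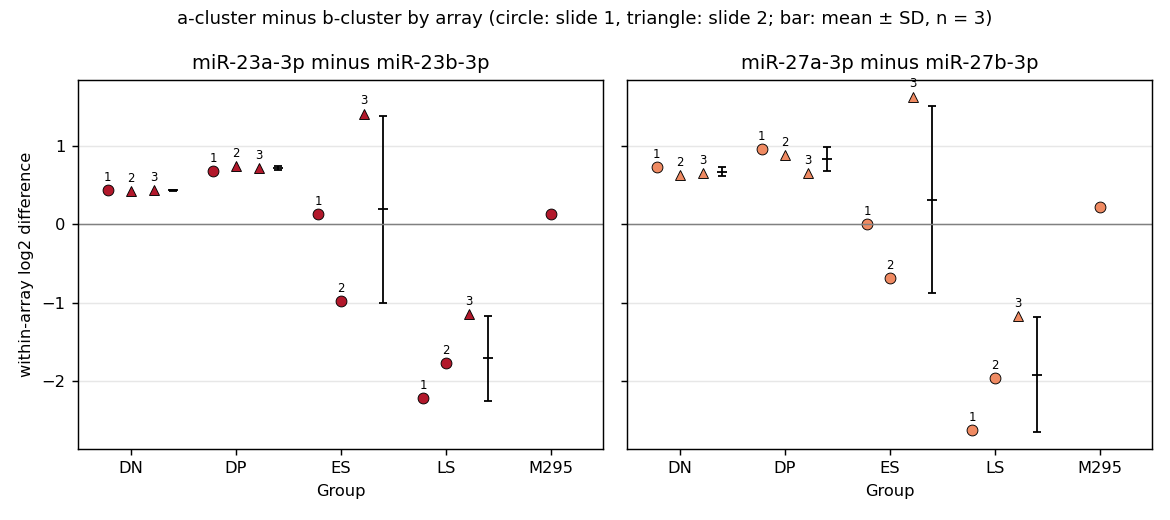
Within-array difference of log2 signal, a-cluster member minus b-cluster member, for the miR-23 pair and the miR-27 pair on every array, with replicate numbers, circles for slide 1, triangles for slide 2 and bars for the mean ± SD of 3 arrays. The 3 LS arrays sit between -2.22 and -1.15 for miR-23 and between -2.62 and -1.16 for miR-27, below all other arrays, and ES 3 is the highest array in both panels.

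Over all T-ALL arrays against all thymocyte arrays the change of the difference was -1.33 for miR-23 (exact permutation test, two-sided, p = 0.0476, adjusted p = 0.156, n = 6 arrays each) and -1.55 for miR-27 (p = 0.0433, adjusted p = 0.156). For both pairs 5 of the 6 T-ALL arrays lay below the lowest thymocyte array, and the exception was ES 3. Without ES 3 the changes were -1.77 and -2.04, each with an adjusted p of 0.0152 by the exact permutation test. Since ES 3 was the only array that overlapped, its removal by itself gives the smallest p this test allows, so that value adds no support. With each of the 12 arrays left out in turn, the adjusted p of the exact test ranged from 0.0152 to 0.203 for both pairs. Within slide 1 the changes were -1.76 and -2.16 and within slide 2 they were -0.45 and -0.47. The limma fit added later gave adjusted p = 0.00541 and 0.00408 with all arrays. From DP to ES the changes were -0.53 and -0.52, and from DN to ES -0.24 and -0.36, less than the spread among the ES arrays. Between DN and DP the miR-23 difference did not overlap (change -0.28, exact p = 0.10, adjusted p = 0.156) and the miR-27 difference did (change -0.16, exact p = 0.300, adjusted p = 0.420).

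**Figure D4:**
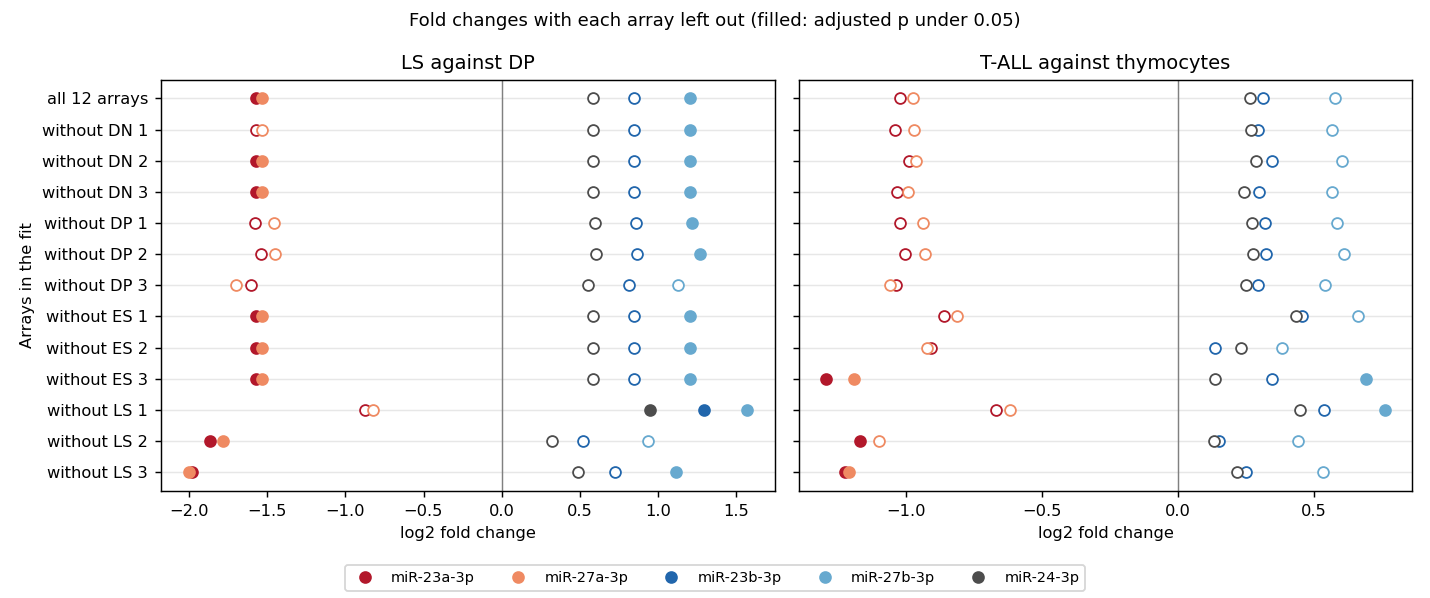
Log2 fold change of the 5 cluster miRNAs in LS against DP and in T-ALL against thymocytes with each array left out in turn, filled where the adjusted p is under 0.05. Without LS 1 the a-cluster values shrink from -1.57 and -1.54 to -0.87 and -0.82 in LS against DP, and without ES 3 the a-cluster values of T-ALL against thymocytes pass the threshold at -1.29 and -1.19.

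The members of a cluster followed each other over the 12 primary arrays. miR-23a-3p and miR-27a-3p had a Pearson r of 0.98 (Spearman rho 0.94) and miR-23b-3p and miR-27b-3p one of 0.94 (rho 0.85). Members of the same family in different clusters had an r of -0.07 for miR-23a-3p and miR-23b-3p and of -0.26 for miR-27a-3p and miR-27b-3p. miR-24-3p had an r of 0.66 with miR-23b-3p and 0.58 with miR-27b-3p, against 0.38 with miR-23a-3p and 0.43 with miR-27a-3p. Without ES 3 its r with the b-cluster members was 0.85 and 0.82, and with the a-cluster members 0.24 and 0.33. These values describe 12 arrays that share their groups and slides, and they are given without a test. LS 1 had the lowest level of the 3 LS arrays for every member, and without it the r of miR-23a-3p with miR-23b-3p was -0.45.

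Outside the clusters, the 3 tested miRNAs with the highest r over the 12 arrays were miR-192-5p (0.82), miR-532-5p (0.82) and miR-322-5p (0.81) for miR-23a-3p. For miR-27a-3p they were miR-532-5p (0.81), miR-322-5p (0.76) and miR-652-3p (0.76). The lists of both a-cluster members share miR-532-5p and miR-322-5p, which adds little, since these members have an r of 0.98 with each other. For miR-23b-3p they were miR-669f-3p (0.74), miR-467a-5p (0.73) and miR-467a-3p (0.72), and for miR-27b-3p miR-1949 (0.78), miR-5117-5p (0.76) and miR-344i (0.75). For miR-24-3p they were miR-101a-3p (0.84), miR-29b-3p (0.82) and miR-29a-3p (0.78). Several of these were not above background on all 12 arrays. miR-344i was above it on 4, miR-322-5p and miR-101a-3p on 7, and miR-192-5p, miR-532-5p and miR-467a-5p on 9. Without LS 1 the r of miR-532-5p with miR-23a-3p and miR-27a-3p was 0.60 and 0.58, and that of miR-322-5p was 0.97 and 0.89.

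miR-128-3p, a miRNA abundant in thymocytes, has the sequence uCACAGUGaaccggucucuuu, whose seed CACAGUG is that of miR-27 shifted by 1 base. It fell in T-ALL against thymocytes (log2 fold change -1.63, SE 0.24, limma adjusted p = 5.60e-04), in LS against DP (-1.77, SE 0.34, adjusted p = 0.00193) and in ES against DP (-1.86, SE 0.34, adjusted p = 0.00166). Its log2 scaled signal was 1.09 to 1.33 in DN, 1.45 to 1.68 in DP, -1.07 to 0.29 in ES, and in LS it was -0.68 to 0.26. Every T-ALL array lay below every thymocyte array, unlike miR-27a-3p, which was higher on ES 3 than on any thymocyte array.

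Markers of cell types also had different levels between the groups. The 4 thymocyte markers, miR-181a-5p, miR-181b-5p, miR-181d-5p and miR-128-3p, were above background in every group, and their summed level on the log2 scale was 1.78 to 1.91 for DN, 3.01 to 3.05 for DP, 0.77 to 1.004 for ES and 0.89 to 1.59 for LS. Of the erythroid markers 2 are on the array, miR-451 and miR-144-3p, with a summed level of -0.41 to 0.02 for DN, -5.91 to -5.19 for DP, -5.57 to -1.36 for ES and -3.47 to 0.68 for LS, so it was higher on every LS array than on any DP array. The 2 myeloid markers, miR-223-3p and miR-223-5p, summed to -5.04 to -4.68 for DN, -6.44 to -6.14 for DP, -6.32 to 2.85 for ES and -6.07 to -5.97 for LS, with miR-223-5p above background on 0 arrays and miR-223-3p above it on the DN arrays and ES 3 alone.

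The 2 mature lymphocyte markers, miR-150-5p and miR-342-3p, summed to -3.38 to -2.89 for DN, -2.29 to -2.13 for DP, -2.72 to -0.69 for ES and -2.69 to -1.42 for LS. The sum joins opposite signs, since in LS against DP miR-342-3p rose (log2 fold change 2.40, limma adjusted p = 4.66e-04), while miR-150-5p was at -2.60 (adjusted p = 0.0770). Of 6 endothelial and stromal markers only miR-126-3p was above background, and on the DN arrays alone. The 6 summed to -3.95 to -3.91 for DN, -4.81 to -4.76 for DP, -5.01 to -4.82 for ES and -5.01 to -4.54 for LS. Apart from miR-126-3p they were at the floor of -7.59 in every primary group, so these sums are largely the floor added up. Of 5 epithelial markers 0 were above background in thymocytes, 1 in ES and 2 in LS. Their sums were -5.27 for DN, -5.27 to -5.25 for DP, -5.27 to -4.88 for ES and -5.07 to -4.55 for LS, where -5.27 is all 5 at the floor. The part of these cell types in the changes of the cluster miRNAs was not tested.

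The line M295 had low levels of all members. On its 1 array the log2 scaled signals were -3.37 for miR-23a-3p and -3.30 for miR-27a-3p, within the range of the 6 primary T-ALL arrays. They were -3.49 for miR-23b-3p, -3.52 for miR-27b-3p and -2.98 for miR-24-3p, below the lowest primary T-ALL array, at -2.78, -2.93 and -2.39. Its within-array differences were 0.12 for miR-23 and 0.22 for miR-27, above all 3 LS arrays and below all thymocyte arrays. With 1 array the difference has no replicate check.

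Both probes of a member were above background on all 13 arrays for miR-23b-3p and miR-24-3p, and on 12 for each of the other members. The signals of the 2 probes of each member correlated over the 12 primary arrays with r of 0.989 to 0.999. Of the 35 log2 fold changes, 33 had the same sign by both probes, with a largest gap between probes of 0.20. The exceptions were miR-27a-3p in ES against DP, at -0.05 and 0.00, and miR-23a-3p in DN against DP, at -0.02 and 0.13. Calls differed by probe where the adjusted p was near the threshold. In a limma fit of single probes, miR-23a-3p passed in LS against DP by 1 probe (adjusted p = 0.0372) and not by the other (0.0537), as did miR-27a-3p (0.0485 and 0.0509). In LS against DN miR-23a-3p passed by neither probe (0.0596 and 0.0615) and miR-27a-3p by both (0.0351 and 0.0347), and miR-27b-3p passed by both in LS against DP (0.0236 and 0.0215).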

How the data were processed

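The members, lists and tests were chosen with earlier results of these data known. Agilent Feature Extraction 10.7.3.1 made the scanner files, per the file headers, and the deposited scanner files give each spot a background-subtracted intensity that is not scaled between arrays. The table of log2 values deposited by the authors had equal column medians (3.29) and ranks that match those of the scanner files. Identical values recurred across its arrays, such as 8.39 for miR-23a-3p on DP 1 and DP 2. Quantile normalization leaves such a pattern, but the full distributions were not compared. The authors' table served as an alternative. RMA, affy, MAS5 and GCOS are named, without roles, in the submitters' processing notes. No spot was saturated.

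Control and outlier spots (4.03 to 8.60% per array) were left out. The kept spots gave a mean per probe and the probes a mean per miRNA, arrays were scaled to the 75th percentile of 108 miRNAs above background on all 12 primary arrays, a floor of -7.59 (log2) was set, and log2 was taken. A miRNA was above background where the software marked 50% or more of the spots of 1 or more of its probes as well above it. The 229 miRNAs of mouse that reached this on every array of a group were fitted with limma 3.58.1 (under R 4.3.3, with version 1.17.8 of its package data.table), with 1 mean per group over the 12 primary arrays, and p-values were adjusted by Benjamini-Hochberg within each comparison (threshold 0.05). The code was tested on simulated data. Differences within arrays were compared with exact two-sided permutation tests, adjusted over 14 tests. M295 was not fitted. Named miRNAs are the members, their cluster partners, seed relatives, the 3 most alike tested miRNAs and cell type markers.

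Alternatives covered scaling, background correction, filters, slide, replicate number and each array left out. Replicate numbers pair no samples by the labels. Over the tested miRNAs, same-numbered DP and LS arrays deviated together from their group means (correlations 0.22, 0.18 and 0.50), so a block for these groups was added after the data were seen, and no other pair of groups had all of its correlations over 0.1.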

Additional observations from a re-analysis of the deposited data

How the results depend on the processing

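Of 425 member values recomputed under settings other than leaving out an array, 351 kept their direction and side of the threshold, 20 lost a call, 31 gained one and 23 changed sign. With a filter, a replicate block or only the groups compared, the fold change is that of the main fit by construction, so its direction could not change. Total gene signal gave nearly the same values as the main fit. The counts also include the fits within a slide, in which some groups have a single array. They are thus no measure of how robust the values are, and the cause was not tested in any case. In T-ALL against thymocytes, where the main fit called 0 members, miR-23a-3p and miR-27a-3p were called as lower under several settings. These were scaling over all mouse miRNAs, quantile normalization, normexp background correction and the authors' value table. In that order they called 121, 142, 102 and 140 of all 229 tested miRNAs, against 131 in the main fit. Only miR-23a-3p was called with miRNAs above background on all 12 arrays only (60 of 108 called) and with the replicate block over all groups (125 of 229). Members called in LS against DP fell from 3 to 0 with no filter on dim miRNAs, and to 1 with slide as a block (127 of all 229 called, 134 in the main fit). Only miR-23a-3p and miR-27a-3p were called there with scaling over all mouse miRNAs, quantile normalization and the authors' value table (129, 144 and 136 of 229). With only the groups compared 2 members were called (159 of 229), and miR-27a-3p was not among them. In LS against DN members called went from 2 to 0 with no filter and with only the groups compared (102 of all 229 called), and to 1 with slide as a block (73 of 229). The main fit called 76 of 229 there. Scaling over all mouse miRNAs gave 1 member in each of ES against DP, LS against ES and DN against DP, where it called 117, 9 and 58 of 229. The percentile used by that scaling lies among miRNAs not above background. In DN against DP there were 4 members with only the groups compared. Counts over all tested miRNAs moved as well. With only the groups compared there were 164 of 229 called in DN against DP, and with no filter 103 of 1122 in LS against DP and 21 in LS against DN. Counts of calls within a slide are not given. DN and DP have a single array on slide 1, and ES and LS on slide 2, so the spread in such a fit comes from the other groups. Leaving out each array in turn gave 0 to 3 members in T-ALL against thymocytes (110 to 154 of all 229 called) and 0 to 1 in ES against DP (69 to 120). It gave 0 to 3 members in LS against DP (99 to 164) and 0 to 2 in LS against DN (32 to 117). There were 0 members in LS against ES (1 to 55 of all 229), DN against DP (44 to 101) and ES against DN (0 to 40).

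On the pairing of replicate numbers, the replicate block for DP and LS left 3 members called in LS against DP (124 of all 229 called). The replicate block over all groups left miR-23b-3p at the edge there (limma adjusted p = 0.04997), for 4 members called (135 of all 229). That block over all groups changed no other count of members than those given here.

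The changes of sign were in comparisons that called no such member. In ES against DP miR-23a-3p was at 0.17 with scaling over all mouse miRNAs and 0.72 within slide 2, and miR-27a-3p at 0.53 and 0.93 there, 0.019 with quantile normalization, 0.071 with normexp, 0.0067 in the authors' table and 0.19 with slide as a block. In LS against ES scaling over all mouse miRNAs put miR-23b-3p at -0.053 and miR-27b-3p at -0.040, and slide 1 put miR-24-3p at 0.017. In ES against DN slide 2 put miR-23a-3p at 0.58 and miR-27a-3p at 0.46, scaling over all mouse miRNAs put miR-23b-3p at 0.017 and miR-27b-3p at 0.19, slide 1 put miR-27b-3p at 0.22, and miR-24-3p was at 0.18 with that scaling, 0.068 with quantile normalization, 0.069 in the authors' table, 0.030 with slide as a block and 0.47 within slide 2. In LS against DN miR-23b-3p was at -0.036 with that scaling and miR-24-3p at 0.0010 within slide 2. Scaling over all mouse miRNAs, which follows dim signals, moved the median of all tested miRNAs by -0.66 to 0.51 over the comparisons. Quantile normalization moved it by -0.31 to 0.06. With an array left out, signs changed for miR-27a-3p (-0.44 to 0.31) and miR-23b-3p (-0.20 to 0.45) in ES against DP, miR-24-3p in LS against ES (-0.48 to 0.22) and in LS against DN (-0.47 to 0.16), and miR-23b-3p (-0.58 to 0.064), miR-27b-3p (-0.45 to 0.17) and miR-24-3p (-0.32 to 0.28) in ES against DN.

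The within-array differences kept their sign in LS against DP, LS against DN, LS against ES and T-ALL against thymocytes under every setting run. In ES against DP slide 2 gave 0.68 for miR-23 and 0.86 for miR-27. In ES against DN the miR-23 difference was at 0.042 with quantile normalization, 0.020 in the authors' table, 0.062 with slide as a block and 0.98 within slide 2, and the miR-27 difference at 0.99 within slide 2. With an array left out the miR-23 change ranged from -1.77 to -1.04 in T-ALL against thymocytes, -1.14 to 0.055 in ES against DP and -0.85 to 0.34 in ES against DN, and the miR-27 change from -2.04 to -1.19 in T-ALL against thymocytes and -1.02 to 0.14 in ES against DN. The limma fit of the differences, chosen after seeing the data, passed the threshold where the exact test did not, for miR-23 at -1.33 in T-ALL against thymocytes, -2.42 in LS against DP, -1.90 in LS against ES and -2.14 in LS against DN, and for miR-27 at -1.55, -2.74, -2.23 and -2.59. All members were above background on all 13 arrays by 1 or more of their probes. Both probes were above it on 12 arrays only for miR-23a-3p, miR-27a-3p and miR-27b-3p. The 9 cluster partners were above background on none.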
